A study of Mus musculus with 2 samples.

Results

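The cells described here are the 66 cells that the authors' deposited annotation names Myofibroblast, out of 11759 cells from mouse kidney. They were chosen by that annotation alone, and all 66 lie in the authors' cluster 26. The IRI library held 35 of them among 5170 cells, and the control library held 31 among 6589. The IRI kidney had undergone unilateral ischaemia-reperfusion injury with removal of the contralateral kidney, and the control kidney came from a normal mouse. Both mice were wild-type C57BL/6 animals of 9 weeks. The labels name no time after injury and no nephrectomy for the control, so effects of ischaemia and of losing the other kidney cannot be told apart. Kidneys were digested to single cells with Liberase and DNase I and strained, so the share of a cell type also depends on how readily its cells came free. Each group is 1 library, so no difference between the libraries could be tested, and intervals below cover counting error only.

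Renal stroma holds several contractile and matrix-producing cells. Smooth muscle cells and pericytes wrap arterioles and capillaries, renin cells at the afferent arteriole release the protease that starts the angiotensin cascade, and fibroblasts build the interstitial matrix. Myofibroblasts, which appear after injury, are classically described as cells that carry alpha smooth muscle actin and also secrete fibrillar collagen.

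The deposited annotation joined cells with different gene programmes under a single name, and the classical pair of myofibroblast genes was detected together in few of them. Acta2 (alpha smooth muscle actin) and Col1a1 (the alpha 1 chain of type I collagen) were both above 0 in 7 of the 35 IRI cells and 1 of the 31 control cells. Either gene can be missed in a shallow cell. Fewer than 1000 transcript molecules were counted in 13 of these IRI cells and 5 of these control cells. Among the 6 markers proposed for the type, Pdgfrb, the PDGF receptor of pericytes and fibroblasts, was above 0 in 10 of 35 cells from IRI (28.6%) and 9 of 31 from control (29.0%). Acta2 was above 0 in 14 IRI cells (40.0%) and in 13 control cells (41.9%). Tagln, which encodes the actin-binding protein transgelin, was above 0 in 17 IRI cells (48.6%) and in 14 control cells (45.2%). These 3 genes were thus found in nearly equal shares of the cells of either library. Rgs5, a regulator of G-protein signalling found in mural cells, was above 0 in 6 IRI cells (17.1%) and in 13 control cells (41.9%). Col1a1 was above 0 in 19 IRI cells (54.3%) and in 4 control cells (12.9%). Ren1, which encodes renin, was above 0 in 1 IRI cell (2.86%) and in 8 control cells (25.8%). Col1a1 thus marked mainly IRI cells, and Rgs5 and Ren1 mainly control cells.

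Reads of these markers outside the annotated cells were rare. In T cells, which should lack all 6, none was above 0 in 97 IRI cells, so a share of up to 3.09% is possible. In 59 control T cells only Ren1 was above 0, in 1 cell. Median depth was 2321 UMIs (unique molecular identifiers, counted transcript molecules) in the annotated IRI cells and 2636 in the annotated control cells, against 3345 in IRI T cells and 2606 in control T cells. The 66 cells held 93.6% of the table's summed Col1a1, 93.5% of its Dcn, 88.8% of its Ren1 and 82.2% of its Acta2. Pecam1, which marks endothelium, was at 0 in all 66.

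By the deposited table's values, the genes that set the annotated cells furthest apart from all other cells were vascular, contractile and matrix genes. Values are corrected counts, that is, UMIs per cell brought by the authors to nearly equal totals, so that 1 UMI in a shallow cell can appear as 2 or 3. Mgp, an inhibitor of vascular calcification, led with a mean of 16.1 corrected counts in IRI cells and 9.52 in control cells. Its log2 ratio over all other cells was 7.17, averaged over the libraries, with 0.05 added to each mean here and in all log2 ratios below. Acta2, Col3a1, Dcn and Tagln followed, with log2 ratios of 5.91, 5.81, 5.64 and 5.60. Others among the first 15 were Col1a2, Myl9, Col1a1, Rgs5, Bgn, Sparc, Tpm2, Fxyd1 and Gsn. Since the authors' clustering used these values, the list describes the cluster and tests nothing.

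To describe the mixture, cells were sorted by 4 sets of 8 genes, which were chosen after the cells' values had been seen. A cell went to the set with the most of its genes above 0, with at least 2 required, and a tie left it unassigned. Levels of set genes within a set are therefore fixed in part by the choice. The mural set comprised renin-cell and smooth-muscle genes (Ren1, Akr1b7, Rgs5, Myh11, Pln, Sncg, Notch3 and Cox4i2). The collagen set comprised Col1a1, Col1a2, Col3a1, Col15a1, Dcn, Lum, Mfap5 and Fbln1. A further set was led by Pcp4, a calmodulin regulator, and Slc6a6, the taurine transporter (with Ncam1, Pax8, Akap12, Stc2, Cdh16 and Clu). The podocyte set included Nphs1, Podxl, Synpo, Cdkn1c, Thsd7a and Wt1.

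The mural set took 3 of 35 IRI cells and 10 of 31 control cells, the collagen set 17 IRI cells and 4 control cells. The Pcp4/Slc6a6 set took 10 cells of each library, and the podocyte set none of the IRI cells and 3 control cells. The remaining 5 IRI cells and 4 control cells, with median depths of 518 and 853 UMIs, were not assigned, 1 control cell of them through a tie between the mural and the collagen set. As shares of all cells of a library, mural cells made up 0.0580% in IRI (95% Clopper-Pearson interval 0.0120 to 0.169%) and 0.152% in control (0.0728 to 0.279%). Their ratio of IRI to control was 0.382 with a counting interval of 0.0676 to 1.48, which includes 1. Collagen cells made up 0.329% in IRI (0.192 to 0.526%) and 0.0607% in control (0.0165 to 0.155%), a ratio of 5.42 with a counting interval of 1.77 to 22.1. Pcp4/Slc6a6 cells made up 0.193% in IRI and 0.152% in control. Because the sets were built from these cells and some of their genes differ between the libraries, the numbers describe these 2 libraries.

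**Figure D1:**
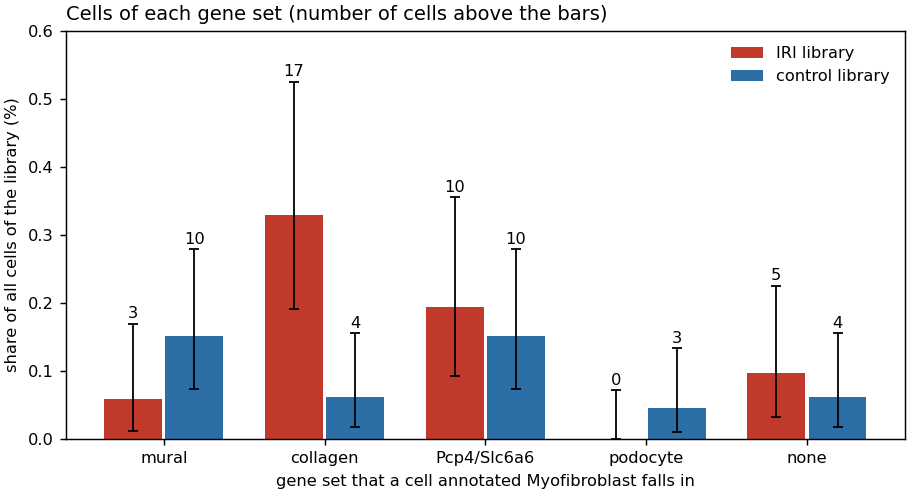
Share of all cells of each library (percent) held by each gene set among the 66 annotated cells, IRI left of control, with 95% Clopper-Pearson intervals as error bars and the number of cells above each bar. Collagen cells number 17 in IRI and 4 in control, mural cells 3 and 10.

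The annotated cells as a whole were 0.677% of IRI cells (0.472 to 0.940%) and 0.470% of control cells (0.320 to 0.667%), a ratio of 1.44 with an interval of 0.862 to 2.41. Depth differed by library within the collagen set. In it 9 of 17 IRI cells and 1 of 4 control cells had under 1000 UMIs, with medians of 975 and 5172 UMIs. At 1000 UMIs or more, 8 IRI cells and 3 control cells remained, and the ratio of their shares was 3.43 with an interval of 0.824 to 20.1, which includes 1. All 20 Pcp4/Slc6a6 cells exceeded 1000 UMIs, with medians of 4116 in IRI and 4105 in control. In the libraries as wholes, median depth was 1888.5 UMIs in IRI and 2344 in control cells, and 55 cell barcodes occurred in both libraries, 1 of them in an annotated Myofibroblast cell.

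**Figure D2:**
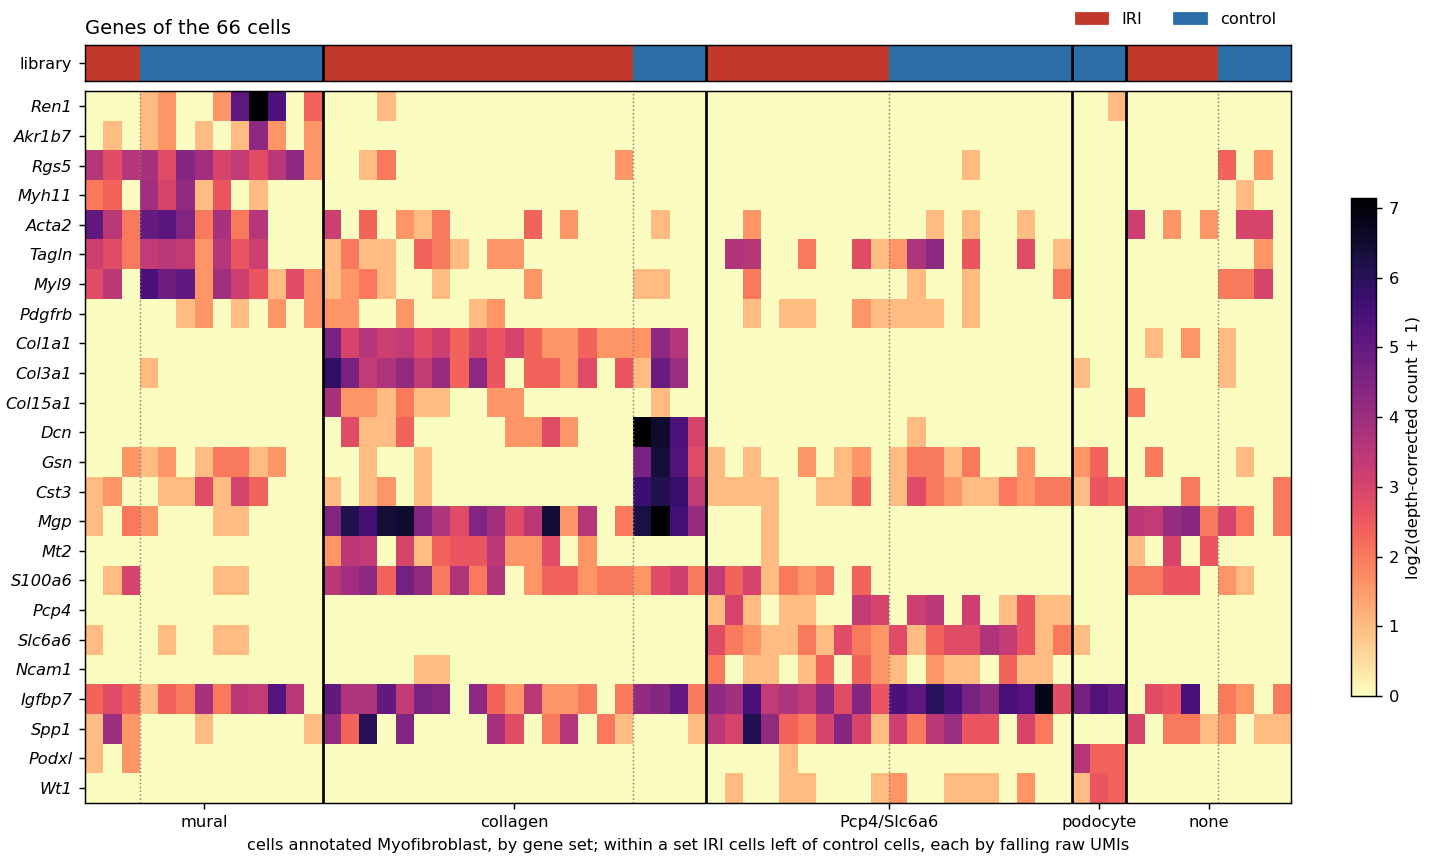
Each column is 1 of the 66 cells and each row a gene, coloured by log2(corrected count + 1); cells are grouped by gene set, with IRI left of control, and ordered by falling UMIs. The blocks follow from the sorting by set genes; genes outside the sets, such as Mgp, Gsn, Igfbp7 and Spp1, also vary between and within them.

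Renin expression was almost restricted to control cells of the mural set. In the IRI library a single annotated cell had Ren1, at 1 corrected count, and it belonged to the collagen set. In the control library 8 annotated cells had Ren1, at 136, 40, 34, 4, 2, 2, 1 and 1 corrected counts. The means were 0.0286 in the 35 IRI cells and 7.10 in the 31 control cells, and 23 control cells were at 0 like nearly all IRI cells. The highest cell held 61.5% of the Ren1 of the annotated cells, and 99.1% lay in mural cells, of whose set Ren1 is a gene. The log2 ratio was -6.51 and rests on that single IRI count. The control cell at 136 also carried 5 macrophage genes, including Cd74 at 7, and the cell at 34 carried 3 endothelial genes. Without all cells that carried 3 or more genes of either list the log2 ratio was -4.60.

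Akr1b7, an aldo-keto reductase made by mouse renin cells, was above 0 in 1 IRI cell and in 7 control cells, with its highest value of 18 in the cell with the most Ren1. Across the 66 cells, after centring by library, Akr1b7 had the highest Pearson correlation with Ren1 (0.83 on log values), followed by Atp1b2 (0.61), Notch3 (0.59), Igfbp5 (0.56) and Pcp4l1 (0.55). These are descriptions over cells that share a library and differ in depth. Ren1 outside the annotated cells came to 5 IRI cells and 14 control cells, none above 3 corrected counts. The 5 IRI cells were annotated Vasculature, where 5 of 96 IRI cells and 1 of 222 control cells had Ren1. Among these Vasculature cells Rgs5 was above 0 in 4 IRI cells and 1 control cell, and Myh11 in 3 and 0. Acta2 was at 0 in the Vasculature cells of both libraries. Whether mural cells lie under that name was not tested. Agt, the substrate of renin, was listed at 0 in all 66 cells.

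The promoters of Ren1 and of the smooth-muscle light chain gene Myl9 are shown because these genes lead the renin and the contractile cells described here. They are RefSeq windows of GRCm38.p6, 250 bases before to 50 after the start, on the plus strand at chr1:133350424-133350723 and chr2:156775214-156775513. Capitals mark the HOX-PBX element in Ren1, 65 to 56 bases before the start, and a CArG box in Myl9, 161 to 152 bases before it.
Ren1: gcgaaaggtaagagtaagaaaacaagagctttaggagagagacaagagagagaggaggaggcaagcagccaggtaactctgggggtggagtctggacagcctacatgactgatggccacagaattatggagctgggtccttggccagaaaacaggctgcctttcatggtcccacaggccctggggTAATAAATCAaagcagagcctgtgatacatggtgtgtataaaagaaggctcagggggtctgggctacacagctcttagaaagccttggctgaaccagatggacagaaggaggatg
Myl9: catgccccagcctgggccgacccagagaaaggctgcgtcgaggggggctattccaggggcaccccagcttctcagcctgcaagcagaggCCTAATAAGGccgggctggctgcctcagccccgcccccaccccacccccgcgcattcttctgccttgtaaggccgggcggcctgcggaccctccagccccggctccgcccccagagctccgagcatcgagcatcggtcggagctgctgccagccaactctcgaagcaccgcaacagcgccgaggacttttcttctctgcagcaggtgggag
The HOX-PBX element is known from the proximal promoter of mouse renin, and the CArG box is the binding sequence of serum response factor. Searched on both strands, the HOX-PBX element occurred in 22 of 32851 mouse promoters (0.0670%) and the CArG box in 535 (1.63%), with 1 promoter holding both. Of 20 mural and contractile genes, 17 had promoter entries, and these held the HOX-PBX element in Ren1 and the CArG box in Myl6 and Myl9. These matches are descriptions of the letters and not of binding.

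Cells with the most Ren1 were not those with the most smooth-muscle genes. The 3 control cells at 136, 40 and 34 Ren1 had 11, 0 and 3 Acta2 and 1, 0 and 0 Myh11 (smooth-muscle myosin heavy chain). The 3 control cells with the most Acta2, at 35, 30 and 21, had 2, 1 and 0 Ren1. Within the mural set Ren1 occurred in 0 of the 3 IRI cells and 7 of the 10 control cells. Of these 7, all had Rgs5, 6 had Akr1b7, 5 had Acta2 and 4 had Myh11.

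In the 3 IRI mural cells Acta2, Rgs5 and Myh11 lay inside the range of the control mural cells. Acta2 was at 32, 10 and 3 corrected counts in these IRI cells, against 0 to 35 with a median of 7 in the 10 control cells. Rgs5 was at 11, 6 and 11 in the IRI cells, against 2 to 20 with a median of 9.5 in control cells. Myh11 was at 3, 4 and 0 in the IRI cells, against 0 to 17 with a median of 1 in control cells. The groups thus overlapped in all 3 genes. Myl9 averaged 5.33 in IRI mural cells and 14.0 in control mural cells, with ranges of 0 to 10 and 1 to 43, so that 1 IRI cell lay below the control range. Mylk, the myosin light chain kinase gene, reached 10 in IRI and 7 in control mural cells. Crip1, a LIM-domain protein, averaged 12.7 and 14.9. Mural cells of both libraries held 74.2% of the Acta2 of the annotated cells, a gene outside the mural set, and 98.1% of their Myh11 and 91.1% of their Rgs5, which belong to it. The genes most correlated with Acta2 were Tpm2 (0.79), Myl9 (0.78), Myh11 (0.77), Pln (0.76) and Mustn1 (0.70).

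Counted over all 66 cells, 6 of 15 contractile genes and 5 of 7 pericyte genes were lower in IRI. A gene was counted as higher or lower when its ratio of IRI to control means passed 2-fold, without a test. Of 2121 genes whose corrected counts summed to 10 or more, 132 were higher (6.22%) and 422 lower (19.9%), with a median log2 ratio of -0.29. No contractile gene was higher, and the median of that list was -0.82. No pericyte gene was higher either (median -1.55), and all 3 renin-cell genes were lower (median -3.55). Mural-set cells numbered 3 of 35 in IRI and 10 of 31 in control, and their part in these counts was not tested. Of 7 vasoactive receptor and signalling genes 5 were lower and none higher (median -1.02).

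**Figure D3:**
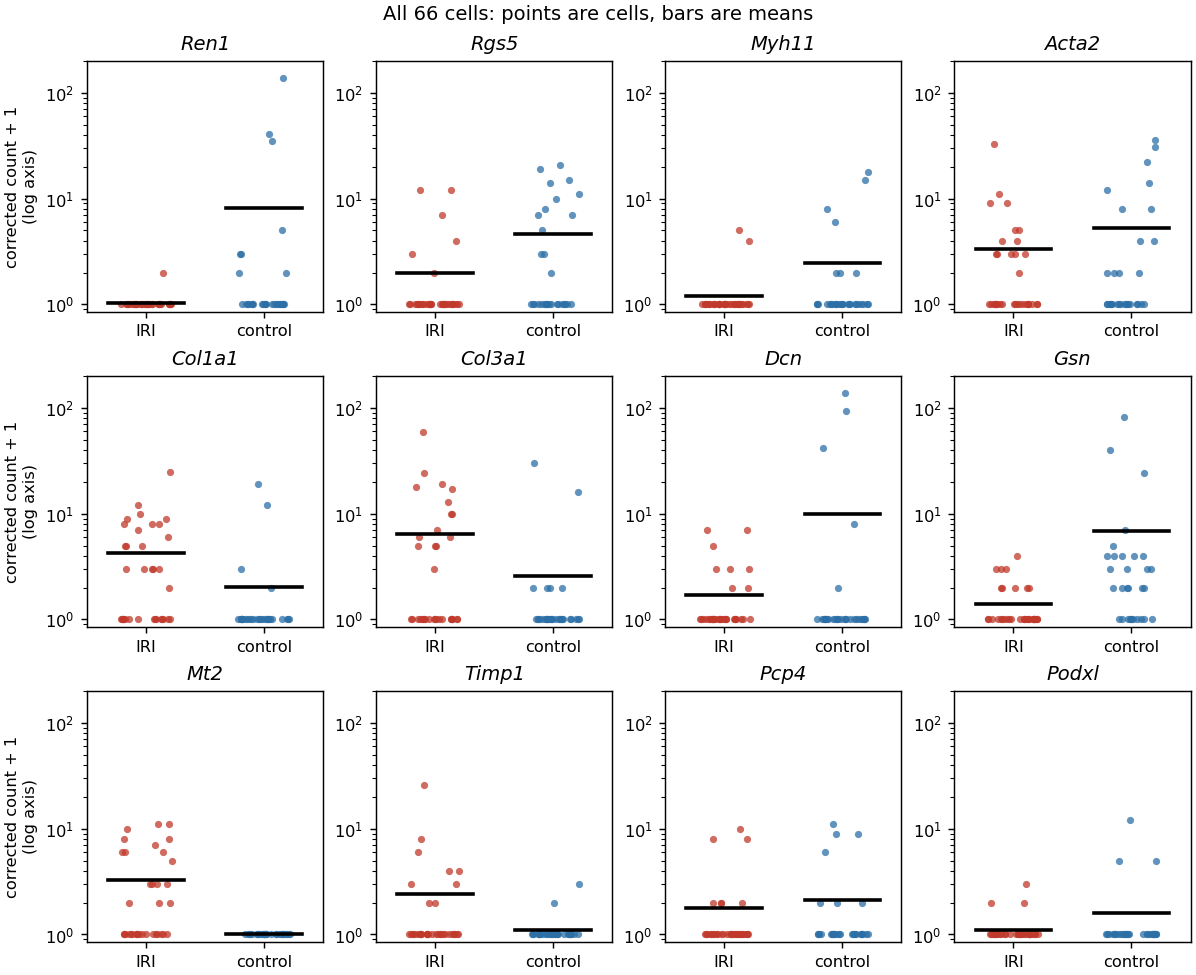
Corrected counts plus 1 on a log axis for 12 genes in the annotated cells, IRI left of control; points are cells and bars are means. Ren1, Gsn and Dcn reach 136, 82 and 138 in control cells and 1, 3 and 6 in IRI cells, while Col3a1 reaches 58 in IRI and 29 in control.

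Collagen cells of the libraries had similar mean levels of Col1a1 and Col3a1 but differed in other fibroblast genes. Col1a1 ranged from 2 to 24 corrected counts in the 17 IRI cells, with a median of 6 and a mean of 6.59, and from 0 to 18 in the 4 control cells, with a median of 6.5 and a mean of 7.75. Col3a1, the type III collagen chain, averaged 11.3 in IRI and 11.25 in control cells, with medians of 6 and 8. For both genes the ranges overlapped and the means lay close together. Col1a2, the other type I collagen chain, averaged 5.76 in IRI (0 to 18) and 12.75 in control cells (0 to 28), a log2 ratio of -1.14. Dcn, which encodes the collagen-binding proteoglycan decorin, was between 0 and 6 in the IRI cells and stood at 138, 92, 41 and 7 in the control cells. Lum, which encodes lumican, a related proteoglycan, was at 0 in the 17 IRI cells and between 5 and 11 in the 4 control cells. Dcn and Lum were singled out after their values had been seen. How many of all genes measured in these cells lack overlap between the libraries was not counted. All of these collagen, Dcn and Lum genes belong to the set that chose the cells.

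Genes outside the set differed in the same cells. Gsn, the actin-severing protein gelsolin, lay between 0 and 1 in IRI collagen cells (mean 0.118) and between 6 and 82 in control collagen cells (mean 37.5), a log2 ratio of -7.81. Cst3, the protease inhibitor cystatin C, lay between 0 and 2 in IRI (mean 0.294) and between 9 and 69 in control (mean 45.75). Serping1, the inhibitor of complement C1, lay between 0 and 1 in IRI (mean 0.235) and between 5 and 15 in control (mean 12.25). None of these 3 genes, chosen after their values were seen, overlapped between the libraries. How many of the 196 genes measured in these cells lack overlap was not counted, so this does not set the 3 genes apart. Cxcl12, the CXCR4 ligand, did overlap, with means of 1.12 in IRI (0 to 14) and 18.5 in control (0 to 46). Among the 6 IRI collagen cells with the most UMIs no cell had Gsn above 1, so the gene was low in deep IRI cells too. The difference rests on 4 control cells. Of these, the cell with 138 Dcn carried 9 macrophage-list genes, with Cd74 at 16, and the cell with 92 Dcn carried 4 endothelial genes. No doublet caller was run here, and how the authors treated doublets is not given in the sources used here. Without those cells, the control collagen cells numbered 2, with 41 and 7 Dcn and 39 and 6 Gsn. The 17 IRI cells reached at most 6 Dcn and 1 Gsn. The control cell at 7 Dcn and 6 Gsn had 381 UMIs, with Col1a1, Col1a2 and Col3a1 at 0. Its values can stand for few molecules, so the remaining difference rests mainly on the deeper cell.

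Beta-actin, a thymosin, osteopontin and metallothionein genes were higher in the IRI collagen cells. Actb, the beta-actin gene, averaged 20.6 in IRI (1 to 60) and 1.0 in control (0 to 4), with a log2 ratio of 4.30. Tmsb10, an actin-monomer binding thymosin, averaged 18.9 in IRI (0 to 97) and 5.5 in control (2 to 9). Both genes overlapped between libraries at their low ends. Spp1, the matrix cytokine osteopontin, was above 0 in 10 of 17 IRI cells, with a mean of 8.41, and in 1 of 4 control cells, with a mean of 0.25. Mt2, a metal-binding metallothionein, was above 0 in 13 of 17 IRI cells, with a mean of 3.82, and was listed at 0 in the 4 control cells. These differences were not particular to collagen cells. In cells annotated tDL, Actb averaged 5.85 in IRI and 2.52 in control, Tmsb10 7.17 and 0.162, and Mt2 3.70 and 0.126. Some types went the other way, such as Vasculature for Mt2 (0.0729 and 0.185) and Ccr2+ macrophages for Tmsb10 (11.8 and 15.4). Over the 196 genes measured in these cells, 47 were higher in IRI (24%) and 33 lower (16.8%), with a median log2 ratio of 0.22.

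Contractile genes were present in part of the IRI collagen cells. Acta2 was above 0 in 7 of 17 IRI collagen cells, at most 8 corrected counts, and in 1 of 4 control collagen cells, at 1. Tagln was above 0 in 9 of the 17 IRI cells and 0 of the 4 control cells, and Pdgfrb in 5 of 17 and 0 of 4. Tnc, the matrix glycoprotein tenascin C, was above 0 in 6 IRI cells and in no control cell, Tgfb1 likewise in 6 and none, and the protease inhibitor Serpine2 in 7 and none. With 4 control cells, these zeros leave wide room for a share that was not seen. No mural cell of either library had Col1a1, which is in part fixed because Col1a1 is a gene of the collagen set. Rgs5, a mural-set gene, was above 0 in 3 of the 17 IRI collagen cells.

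**Figure D4:**
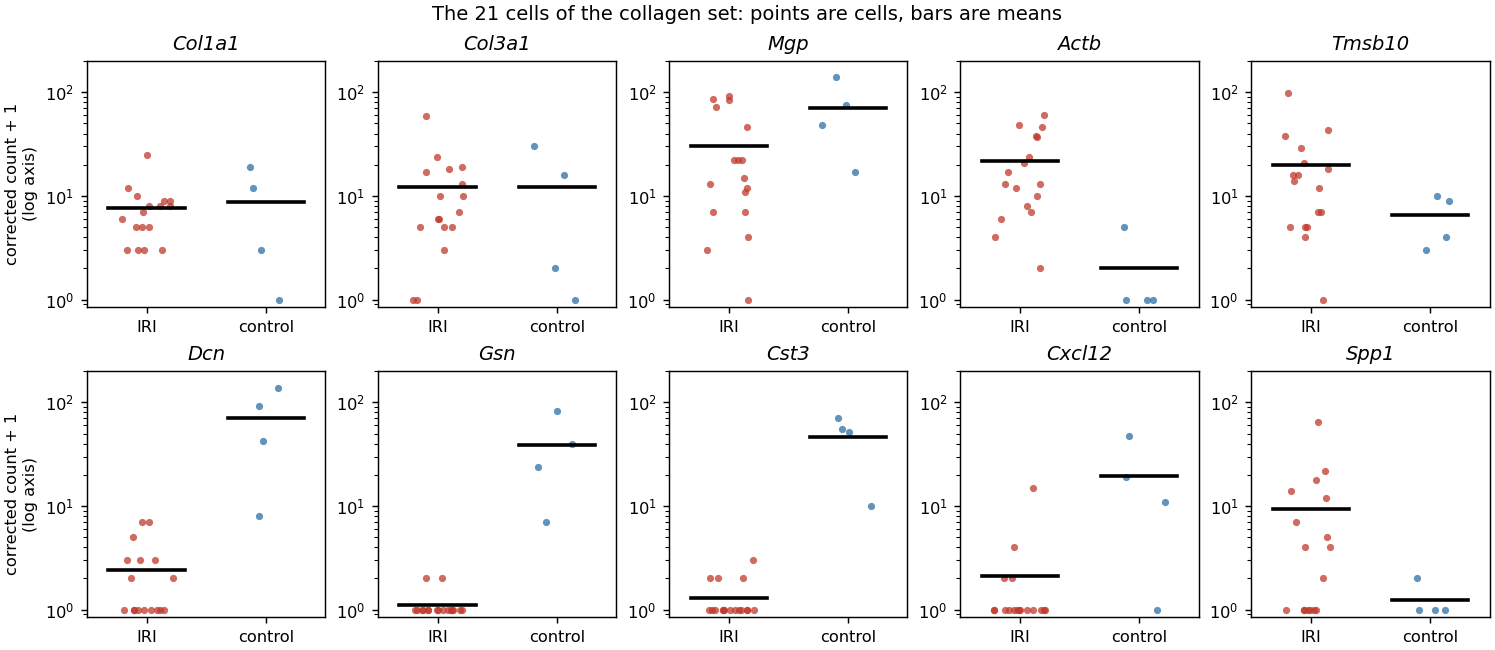
Corrected counts plus 1 on a log axis for 10 genes in the 21 collagen cells, IRI (17 cells) left of control (4 cells); points are cells and bars are means. Dcn, Gsn and Cst3 reach at most 6, 1 and 2 in IRI and 138, 82 and 69 in control cells. Col1a1 and Col3a1 overlap, and Actb averages 20.6 in IRI and 1.0 in control.

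The 20 Pcp4/Slc6a6 cells had no Col1a1, Col1a2 or Col3a1 above 0 and little Rgs5 or Acta2. All of these but Acta2 belong to the collagen or mural set, so their low levels are in part fixed by the sorting. Col1a1 was at 0 in all 20 and Rgs5 was above 0 in 1. They did carry Tagln and Pdgfrb, with Tagln above 0 in 5 of 10 IRI cells and 6 of 10 control cells, and Pdgfrb in 5 IRI cells and 4 control cells. Of the Tagln of all annotated cells, 45.8% lay in them, so part of that marker's signal came from cells without Col1a1, Col1a2 or Col3a1. Basement membrane collagen was present, with Col4a1 above 0 in 9 cells of each library. Acta2 reached at most 2 corrected counts in them. Of other genes of the list of stroma at large, Bgn was above 0 in 14 of the 20 cells, Cald1 in 13 and Ifitm1 in 0.

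Transcription factor genes of kidney epithelium and of podocytes were each found in part of these 20 cells, and most cells with either did not have both. Pax8, a factor of kidney epithelium and 1 of the 8 genes that chose the cells, was above 0 in 6 IRI cells and in 2 control cells. Wt1, a factor of podocytes and of developing kidney that is not in this set, was above 0 in 4 IRI cells and in 5 control cells. Pcp4 averaged 2.7 in IRI cells (at most 9) and 3.4 in control cells (at most 10), and was above 0 in 7 cells of each library. Slc6a6 was above 0 in all 20, with means of 2.8 in IRI (1 to 6) and 5.3 in control (1 to 12). Ncam1, a neural cell adhesion molecule, was above 0 in 7 cells of each library. The gene combination matches no marker list used here, and the cells are given no type name. Among genes outside the set, Rasl11b (mean 1.65 against 0.022 in the other annotated cells) and Gstm2 (3.05 against 0.174) led by ratio, followed by Epb41l5, Thbs1, Adamts1 and Gstm1 (6.25 against 0.630).

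Some genes differed between the libraries in these cells, whose depth was 2992 to 7790 UMIs in IRI and 1081 to 6444 in control. Igfbp7, a secreted IGF-binding protein, averaged 15.5 in IRI cells (5 to 43) and 42.0 in control cells (6 to 109, the highest in a cell of 1803 UMIs), a log2 ratio of -1.44. Gstm1, a glutathione transferase, averaged 2.4 in IRI (0 to 11) and 10.1 in control (1 to 19), a log2 ratio of -2.05. Both ranges overlapped, with the IRI cells lower on average. S100a6, a calcium-binding protein, was above 0 in 8 of 10 IRI cells (mean 3.3) and was listed at 0 in the 10 control cells. Spp1 averaged 14.4 in IRI (1 to 68) and 5.6 in control (0 to 15). Col4a1, a basement membrane collagen, averaged 3.1 in IRI (0 to 10) and 1.2 in control (0 to 3). S100a6 and Spp1 were higher in the other IRI cells of the kidney as well, with means over all other cells of 2.88 in IRI and 0.109 in control for S100a6, and of 8.68 and 0.356 for Spp1. Over all annotated cells their log2 ratios were 2.76 and 2.14, and 2.62 and 1.85 after estimated free RNA had been subtracted. Of 202 genes measured in these cells, 13 were higher (6.44%) and 13 lower (6.44%), with a median log2 ratio of 0.12.

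The 3 podocyte-set cells all came from the control library. They had 11, 4 and 4 corrected counts of Podxl (podocalyxin, of the podocyte surface) and 1, 5 and 4 of Wt1. Both are genes of the set that chose them. Neither Acta2, Pdgfrb nor Col1a1 was above 0 in them, while Col1a2 was at 2 in 2 of the 3. By the podocyte list they are podocyte-like, and the count of 0 among 5170 IRI cells leaves room for up to 0.0580%. The 66 annotated cells held 95.5% of the table's Wt1.

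Taking the 66 cells by the deposited name, the genes with the highest ratios in IRI included Mt1, Mt2, Timp1, Col15a1 and Col3a1, and those with the lowest included Ren1, Gsn, Dcn, Myh11 and Myl9. The 556 genes whose corrected counts summed to 30 or more held 27 that were higher (4.86%) and 87 that were lower (15.6%), with a median log2 ratio of -0.16. With means rescaled by a trimmed mean of log ratios, which removes a shift of -0.32, the counts were 60 higher and 50 lower, so the excess of lower genes depends on scaling. Of those called, 1 higher and 5 lower genes were listed at 0 in the other library. The 24 genes named by rank kept their direction and their 2-fold size under 10 alternative settings. They were picked for extreme ratios and the settings reuse the same cells, so this was largely fixed in advance.

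Among the genes higher in IRI, Mt2 was above 0 in 17 of 35 IRI cells (0 to 10, median 0, mean 2.26) and listed at 0 in the 31 control cells. Mt1, its neighbour in the metallothionein family, averaged 3.49 in IRI and 0.323 in control cells (log2 ratio 3.25). Most of it lay in the collagen cells, which held 80.3% of Mt1 and 82.3% of Mt2. Timp1, an inhibitor of matrix metalloproteinases, averaged 1.4 in IRI and 0.0968 in control cells (3.30). For Timp1 a single unassigned IRI cell had 25 corrected counts, 48.1% of the total. Col15a1, a basement membrane zone collagen, averaged 0.857 in IRI and 0.0323 in control cells (3.46). S100a6 was above 0 in 30 of the 35 IRI cells and 8 of the 31 control cells, with medians of 3 and 0. Lgals1 (galectin 1) was above 0 in 33 IRI cells and in 15 control cells, with medians of 4 and 0. These 2 genes were the most widespread of the group, and both overlapped between libraries. Ifi27l2a, an interferon-induced gene, averaged 2.43 in IRI and 0.419 in control cells (2.40). Col3a1 averaged 5.49 in IRI and 1.55 in control cells (1.79). Cxcl14, Spp1 and Tubb5 were also among the higher genes, with log2 ratios of 2.15, 2.14 and 2.04.

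Among the genes lower in IRI, Gsn was above 0 in 9 of 35 IRI cells (0 to 3, median 0) and in 20 of 31 control cells (0 to 82, median 1), with means of 0.400 and 5.90 (log2 ratio -3.73). Dcn averaged 0.686 in IRI and 9.00 in control cells (-3.62), and this value was -1.34 without the cells that carried 3 or more macrophage or endothelial genes. Cst3 averaged 0.600 in IRI and 7.77 in control cells (-3.59), and Serping1 averaged 0.2 and 1.90 (-2.97). Contractile Myh11 and Myl9 had log2 ratios of -2.62 and -2.57, with highest values of 4 and 10 in IRI and 17 and 43 in control cells. Dbp, a clock-controlled transcription factor, averaged 0.229 in IRI and 1.48 in control cells (-2.46), and it was lower in the other IRI cells too (0.106 in IRI and 0.561 in control). H2-D1, Igfbp6, Tm4sf1 and Gstm1 had log2 ratios of -2.46 to -2.40.

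**Figure D5:**
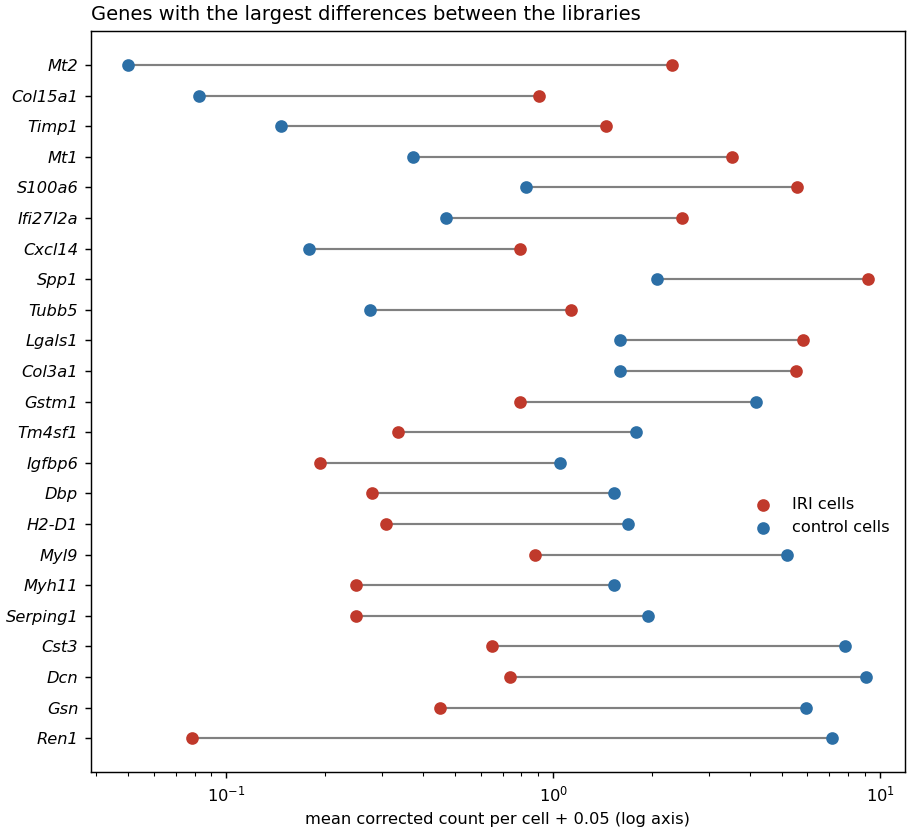
Mean corrected count plus 0.05 on a log axis over the 35 IRI cells and the 31 control cells for genes with the highest and lowest log2 ratios, the 12 lowest and 11 of the 12 highest. Mt2 is listed at 0 in control cells, and Ren1 averages 0.0286 in IRI and 7.10 in control cells.

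The fibroblast list and the activated-myofibroblast list had medians of opposite sign. Of 15 fibroblast genes measured, 11 were lower in IRI and 2 higher, with a median of -2.11, against 19.9% lower and 6.22% higher of all genes at that minimum. The 2 higher ones were Col1a1 (log2 ratio 1.62) and Col3a1, and the lower ones include Lum, Mfap5 and Serpinf1, listed at 0 in IRI. Without the cells that carried 3 or more macrophage or endothelial genes, all of them control cells, the median was -1.26. Of 8 genes of activated myofibroblasts, 5 were higher and none lower, with a median of 1.49. They were Timp1, Fn1 (fibronectin, 2.37), Col5a2 (a fibril-regulating collagen, 2.27), Tnc (1.65) and the matrix protease Adamts1 (1.34). Adamts1 was at 0 in all 21 collagen cells and was above 0 in 8 of 10 IRI and 3 of 10 control Pcp4/Slc6a6 cells, and Tnc was above 0 in 7 of 10 Pcp4/Slc6a6 cells of each library. In mural and collagen cells alone, a subset chosen after seeing the data, 4 of 6 measured members were higher and 2 lower (median 2.18). Over all 66 cells the contractile genes of that list did not follow, with Acta2 at -0.85 and Tagln at -0.72. Within the collagen set they were higher in IRI. There Acta2 averaged 1.41 in the 17 IRI cells and 0.25 in the 4 control cells, and Tagln 1.06 and 0. Over all 66 cells the median of the list stood at 0.46 over the 4 members with at least 30 counts. Counted by cell, at least 3 genes of the activated-myofibroblast list were above 0 in 17 of the 35 IRI cells and 5 of the 31 control cells, and at least 3 of the fibroblast list in 16 and 9. These counts were not split by gene set, and Pcp4/Slc6a6 cells can be among those with activated-myofibroblast genes.

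Of 12 genes of stroma at large 3 were higher and 1 lower, with a median of -0.20 that was 0.12 after the trimmed-mean rescaling. The counts in the lists here and below stand against 6.22% higher and 19.9% lower of all 2121 genes. Of 20 collagens and basement membrane genes, 8 were higher and 2 lower, with a median of 0.61. Higher ones included Col4a1 (1.46), Col4a2 (1.63) and Col6a3 (1.94), and the lower ones were the laminin chain Lamb2 (-1.06) and elastin, Eln (-1.02). Of 11 matrix-remodelling genes 4 were higher, among them Serpine2 (2.70) and the crosslinking enzyme Loxl1 (1.52), and 2 were lower, the protease inhibitors Timp2 (-1.13) and Timp3 (-1.26). The median of that list was 0.36, and -0.38 over its 4 members with at least 30 counts. Of 4 mesangial genes measured 2 were higher, Serpine2 and Lhfp, and none lower (median 0.88).

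Few genes of the growth-factor pathways passed 2-fold, and the shares of the TGF-beta and Notch lists that were lower, 2 of 8 and 1 of 4, were near the 19.9% of all genes. Pdgfrb, the receptor, had a log2 ratio of 0.13, and Pdgfa, a ligand, averaged 0.0857 in IRI and 0.355 in control cells (-1.58). Tgfb1, the ligand of the TGF-beta pathway, averaged 0.400 in IRI and 0.0323 in control cells (2.45). Of 8 TGF-beta genes measured it was the only gene that was higher, and 2 were lower, the target Id1 (-1.57) and the latent-complex protein Ltbp4 (-1.30). Notch3, a receptor of mural cells, was the only gene lower among 4 Notch genes (-1.63). Of 11 YAP and SRF targets 2 were higher, among them Actb (1.76), and 1 was lower. Of 5 complement genes 4 were lower and none higher, but with 0.2 added to each mean only 1 of the 5 was lower. Cxcl12 (-2.06) and the growth factor Igf1 (-2.11) were the 2 lower of 3 chemokine and growth-factor genes. Of 5 glucocorticoid-response genes Mt1 and Mt2 were higher, while Tsc22d3 (-2.83) and Klf9 (-2.37) were lower, so that list had no common direction.

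Markers of other cells gave the following levels. Of 5 podocyte genes 4 were lower in IRI (median -2.01), with the 3 podocyte-set cells in control only. The macrophage list summed to a mean of 0.74 corrected counts in IRI cells (0 to 6) and 2.48 in control cells (0 to 43). The proximal tubule list summed to 16.7 in IRI cells (4 to 45) and 25.1 in control cells (4 to 134), and its gene Kap, an androgen-regulated kidney protein, had a log2 ratio of -2.36. At least 2 genes of this list were above 0 in every annotated cell of either library, and where their RNA came from was not tested. Lymphocyte and neutrophil genes summed to at most 1 in any annotated cell of either library. The 24 genes named by rank, chosen for extreme ratios, passed 2-fold also after free RNA was subtracted and without the cells that carried 3 or more macrophage or endothelial genes. Mki67, a proliferation gene, was above 0 in 4 of the 35 IRI cells and 0 of the 31 control cells.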

How the data were processed

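Droplet single-cell RNA sequencing was deposited as 1 IRI and 1 control library of mouse kidney. Cell Ranger 3.0.0, Seurat 3.2 and build mm9 are listed in the submitters' processing notes, with no roles. The authors deposited depth-corrected counts (a score, not raw counts: whole numbers with near-equal totals per cell, the form SCTransform gives; the step itself is not given in the sources used here), and a second deposited score table holds model residuals for a subset of the genes and was not used for results. The deposited annotation is written without separators, so raw UMIs, which total 16816996 in IRI and 24169073 in control, were split by matching corrected totals; 3615 cells have more than 1 possible split, 33 of them annotated Myofibroblast. This split touches only UMI numbers.

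Because the values are corrected, no count test applies, and with 1 library per group no test was made. Log2 ratios are of mean corrected counts plus 0.05, for genes with at least 30 summed corrected counts, or 10 for list members. A share of 0 is given with the limit that 3 counts of the total allow, and other shares have 95% Clopper-Pearson intervals. Named genes are the 12 highest and 12 lowest log2 ratios among genes above 0 in at least 7 cells, with a mean of at least 0.5 in the higher library and not below that library's other cells, leaving out mitochondrial, ribosomal, haemoglobin, Gm and Rik genes; besides, 15 genes describe the type, 5 genes are named by correlation for Ren1 and for Acta2, and list members are named. A gene singled out within a gene set was chosen after its values were seen. The members, the 36 lists and the comparisons were chosen with earlier results of these data known. Alternatives were other pseudocounts, minimum counts, folds, scalings, free-RNA subtraction and subsets of cells. Calculations used Python 3.11.15, numpy 2.4.6, scipy 1.17.1 and pandas 2.3.3, and the ratio step was tested on simulated data. Promoters are RefSeq sequences on GRCm38.p6, matched by symbol; no coordinates of mm9 were used. Some genes are not reported here, although they entered the counts.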

Additional observations from a re-analysis of the deposited data

How the results depend on the processing

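Over all annotated cells, 27 of the 556 genes measured were higher in IRI by 2-fold and 87 lower. The higher count was 60 after a trimmed-mean rescaling, 66 with estimated free RNA subtracted and 17 at 3-fold, each of 556. It was 132 of 2121 genes from 10 summed counts and 9 of 183 from 100 counts. The lower count was 50 of 556 after the trimmed mean and 38 of 556 at 3-fold. It was 422 of 2121 from 10 counts and 16 of 183 from 100 counts. In the mural and collagen cells alone, an alternative chosen after seeing the data, it was 45 of 282 genes measured. The minimum count, the fold and the smaller number of genes measured change these counts by construction. For the trimmed mean and free RNA the cause was not tested. Collagen cells in IRI numbered 8 of at least 1000 UMIs, against 17 in all, and control collagen cells numbered 2 without cells carrying 3 or more macrophage or endothelial genes, against 4. The 24 genes named by rank kept direction and 2-fold size in 240 of 240 comparisons over 10 alternatives. Being the extremes of the same cells, they could hardly do otherwise, and the comparisons add no independent support. The median of the list of stromal genes at large changed sign, with -0.20 as reported, 0.12 after the trimmed mean, 0.16 without each library's highest cell and 0.25 without the cells carrying macrophage or endothelial genes. For 24 of the 36 lists, over the alternatives, 218 medians kept their side of 2-fold, 21 newly passed it and 10 no longer did. No paired analysis was possible because each group is 1 library. Depth limits the shallow cells most: 13 of 35 IRI cells and 5 of 31 control cells had under 1000 UMIs.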

Other observations

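Single stress, interferon and antigen-presentation genes of the annotated cells passed 2-fold between the libraries, against 6.22% higher and 19.9% lower of all 2121 genes, which the shares in the immediate early and heat shock lists lie near. Of 10 immediate early genes measured, the transcription factor gene Egr1 was higher in IRI, with a mean of 0.629 corrected counts in IRI cells and 0.194 in control cells (log2 ratio 1.48), and Dusp1 (-1.26) and Klf6 (-1.05) were lower. Of 9 heat shock genes the small chaperones Hspb1 (-1.13) and Cryab (-1.27) were lower and none was higher. Of 7 interferon-response genes Ifi27l2a (2.40) and Ifitm1 (1.52) were higher and none was lower. Of 5 genes of class I antigen presentation H2-D1 and H2-Q7 were lower, and H2-Q7 (mean 0.0286 in IRI and 1.35 in control cells) was among the leading genes of the 3 podocyte-set cells. Among 12 S100, annexin and thymosin genes, S100a6, Tmsb10 (1.77) and Lgals1 were higher and Anxa1 (-1.79) was lower.

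Pdgfb, a ligand of Pdgfrb, averaged 0.302 corrected counts in 96 IRI Vasculature cells and 0.203 in 222 control Vasculature cells. These are values of 1 library per group, and no link between the cell types was examined.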
